A study of Mus musculus with 5 samples.

Results

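The extracellular matrix of a liver tumour is built, cross-linked and cut by secreted enzymes, and 56 of the 22287 genes of the deposited table belong to 4 families of them. They are the matrix metalloproteinases (MMPs, 23 genes), their tissue inhibitors (TIMPs, 4 genes), the ADAMTS proteases (19 genes) with the related ADAMTS-like proteins (5 genes), and the lysyl oxidases (5 genes). The genes were chosen by symbol alone: Mmp or Timp followed by a digit, any symbol that starts with Adamts, and Lox with Loxl1 to Loxl4. RNA was sequenced from liver tumours of C57BL/6 mice given DEN, a liver carcinogen, with CCl4, a liver toxicant, over 5 months. The 3 KO libraries came from tumours of lnc-CTHCC-/- mice, labelled as knockouts of a long non-coding RNA, and the 2 WT libraries from tumours of wild-type mice given the same agents. Genotypes are taken as labelled, since the level of lnc-CTHCC itself was not checked here. The labels do not say how the KO allele was made, or whether each tumour came from its own animal, so p-values may measure only a technical spread.

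MMPs are zinc proteases, made as inactive precursors, that cut collagens, laminin, elastin and other matrix proteins, and TIMPs block them by occupying the active site. ADAMTS enzymes trim procollagen or cut large proteoglycans such as versican, and ADAMTS-like proteins lack the protease domain and sit on microfibrils. Lysyl oxidases are copper enzymes that cross-link collagen and elastin. In injured liver these genes are known mainly from stellate cells, fibroblasts and macrophages, and the balance of proteases and inhibitors is known to shape how scar matrix is kept or cleared.

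Levels are given in FPKM, a count of fragments divided by gene length and library size, so they can be compared between genes. The depth behind them is unknown. FPKM summed to 526229 to 537958 in the KO libraries and to 530213 and 552619 in the WT libraries. Hepatocyte markers, 8 genes headed by Alb, together reached 110351 to 111402 FPKM in the KO libraries, against 98838 and 128905 FPKM in the WT libraries, in tumours labelled as liver. The pair of WT libraries had the lowest correlation of any pair across the genes tested (r = 0.965), and KO 1 and KO 2 the highest (r = 0.984). In a bulk tumour, fewer cells of a type and less RNA per cell cannot be told apart.

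Position and promoter sequence were compared among the MMPs. In GENCODE vM21 (GRCm38, the same assembly as mm10), 10 MMP genes lie together on chromosome 9, from base 7272514 to base 7699585, a span of 427072 bases, in the order Mmp13, Mmp12, Mmp1b, Mmp3, Mmp1a, Mmp10, Mmp8, Mmp27, Mmp20 and Mmp7. RefSeq promoter windows (GRCm38.p6, 250 bases before to 50 after a start) were at hand for 37 of the 56 genes, in 40 windows. The AP-1 motif TGANTCA, which reads the same on both strands and is a textbook element of MMP promoters, was found in 8 of the 40 windows (20%), against 7.81% of 32851 promoter windows of all genes. All 8 belong to the chromosome 9 group, and 0 of the 27 other genes with a window hold it. In the group, Mmp8 and Mmp27 have windows without it, and so do Mmp7 and Mmp12 at another of their RefSeq starts. Mmp2, Mmp9, Mmp16, Mmp17 and Mmp19, which lie outside the group, had no window. Variants of the motif were not searched, so AP-1 sites cannot be called confined to the group. In each of the 8, TATAAA, the letters of a TATA box, follows on the same strand within 50 bases, an arrangement found in 0.167% of the 32851 windows. The 67 bases from 10 before the AP-1 letters to 50 after them are shown, 5′ to 3′ on the strand of the gene, because these 8 genes of the cluster share the layout while they differ widely in level. Capitals mark TGANTCA and TATAAA.
Mmp7 (chr9:7692017-7692083, plus strand): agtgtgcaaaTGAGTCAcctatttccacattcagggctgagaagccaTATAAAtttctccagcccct
Mmp12 (chr9:7347320-7347386, plus strand): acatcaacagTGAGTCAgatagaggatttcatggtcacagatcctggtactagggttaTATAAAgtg
Mmp13 (chr9:7272469-7272535, plus strand): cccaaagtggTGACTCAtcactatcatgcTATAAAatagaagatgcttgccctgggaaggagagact
Mmp3 (chr9:7445766-7445832, plus strand): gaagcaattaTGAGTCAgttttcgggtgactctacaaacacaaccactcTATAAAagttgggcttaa
Mmp10 (chr9:7502269-7502335, plus strand): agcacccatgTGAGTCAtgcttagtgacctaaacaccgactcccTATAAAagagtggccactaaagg
Mmp1a (chr9:7464058-7464124, plus strand): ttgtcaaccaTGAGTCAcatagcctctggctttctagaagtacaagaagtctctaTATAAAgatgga
Mmp1b (chr9:7388063-7388129, minus strand): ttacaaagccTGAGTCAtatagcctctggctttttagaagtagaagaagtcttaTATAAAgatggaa
Mmp20 (chr9:7628126-7628192, plus strand): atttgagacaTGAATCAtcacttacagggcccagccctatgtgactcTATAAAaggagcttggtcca

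The spacing of the elements differs. TATAAA starts 12 bases after the AP-1 letters in Mmp13 and 41 bases after them in Mmp12, whose window is that of the second of its RefSeq starts. A match describes letters and is no evidence of binding. Of these 8 genes, Mmp12 and Mmp7 reached a mean of 1 FPKM, Mmp13, Mmp3 and Mmp10 were detected below it, and Mmp1a, Mmp1b and Mmp20 were listed at 0 in every library. The shorter motifs AGGAAG (the letters of PEA3 sites, on either strand) and TATAAA (on either strand) were in 16 and 12 of the 40 windows, against 35.4% and 13.6% of all windows.

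Across the 56 genes, 49 had a value above 0 in some library, and 18 had a mean of at least 1 FPKM and were tested. None of the 18 passed limma's test of KO against WT (smallest adjusted p = 0.999). Of all 10132 genes tested, 1 was called (0.00987%). At an unadjusted p under 0.05 there was 1 of the 18 (5.56%), Mmp7, where 3.23% of all genes tested reached it. The authors' deposited table has 4 of the 49 at p under 0.05 (8.16%, against 3.8% of all genes with a value), Adamtsl4, Mmp7, Mmp13 and Mmp19, and 0 at a false discovery rate under 0.05 (smallest 0.806). The KO and WT values did not overlap in 2 of the 18 (11.1%), Mmp14 and Loxl4, both with KO above WT, where 15.1% of all genes tested had such a gap (9.78% with KO above and 5.29% with KO below).

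By level the set was steep. Mmp14, Mmp15, Mmp19 and Timp3 together made up 56.8% to 64.1% of the summed FPKM of the 56 genes in the KO libraries, against 61.9% and 63.9% in the WT libraries. Only 5 genes had a mean of at least 5 FPKM, these 4 and Timp2. Mmp14 was the highest member in 4 of the 5 libraries, and in WT 2 Mmp19 was above it.

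**Figure D1:**
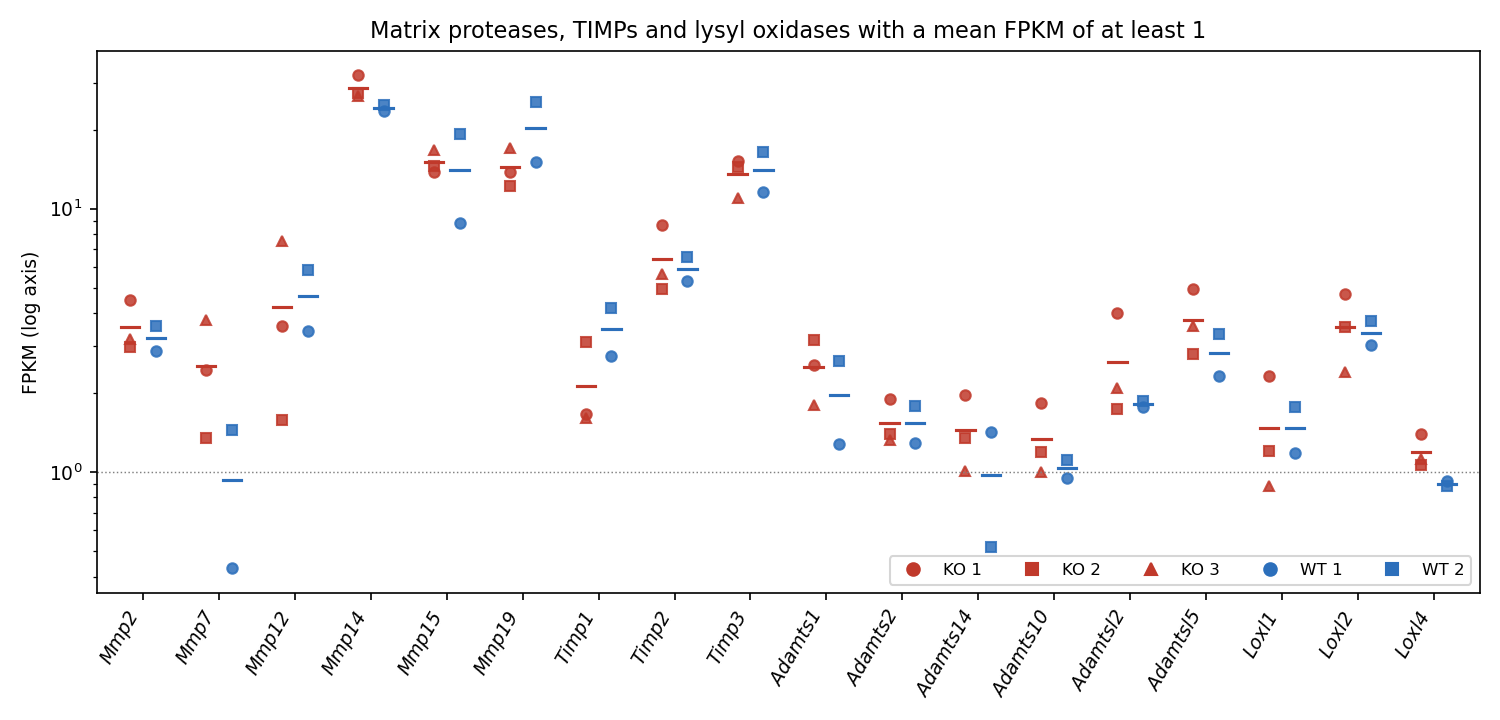
FPKM (log axis) of the 18 genes with a mean of at least 1 FPKM, with the 3 KO libraries in red left of the 2 WT libraries in blue; short lines are group means and the dotted line is 1 FPKM. Only in Mmp14 and Loxl4 do the red and blue points not overlap, and KO 1, the red circle, is the highest of the 5 points in 11 genes.

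Among membrane-bound MMPs, Mmp14 (MT1-MMP, chromosome 14, 54431612-54445364 on the plus strand) cleaves fibrillar collagen at the cell surface and activates the precursor of MMP2. It was at 32.1, 27.5 and 26.7 FPKM in the KO libraries, against 23.4 and 24.8 FPKM in the WT libraries. The lowest KO library, KO 3, was above the higher WT library, WT 2. The means were 28.8 ± 2.91 FPKM (SD, n = 3) in KO and 24.1 ± 0.976 FPKM (SD, n = 2) in WT tumours. The difference of log2(FPKM + 1) was 0.24 (95% interval -0.14 to 0.63, limma adjusted p = 0.999).

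Mmp15 (MT2-MMP, chromosome 8, 95352268-95375080 on the plus strand), another membrane-anchored protease, was at 13.8, 14.6 and 16.7 FPKM in KO, against 8.81 and 19.3 FPKM in WT. The KO libraries all lay between the WT libraries. Its log2 difference of 0.18 (95% interval -0.47 to 0.83) rests on which WT library is used: it was 0.70 without WT 2 and -0.34 without WT 1. The other membrane-bound genes Mmp16, Mmp17, Mmp24 and Mmp25 were below the filter. Mmp24 was at 1.06 FPKM in KO 1 and at 0.19 to 0.34 FPKM in the other 4 libraries. Exons of Mmp24 overlap those of BC029722 on the opposite strand, a gene at 6.91 to 8.1 FPKM in KO and at 5.83 and 9.07 FPKM in WT.

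The gelatinase Mmp2 (chromosome 8, from 92827291 to 92853420 on the plus strand), which degrades denatured collagen and type IV collagen and is activated by MMP14 with the help of TIMP2, stood at 4.50, 2.98 and 3.20 FPKM in KO, against 2.89 and 3.59 FPKM in WT. Its groups overlapped, with a log2 difference of 0.10 (95% interval -0.39 to 0.58). Mmp9, the gelatinase typical of neutrophils and macrophages, was at 0.32, 0.44 and 0.22 FPKM in KO, against 0.38 and 0.55 FPKM in WT.

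Mmp19 (chromosome 10, 128790910-128800824 on the plus strand), which cleaves basement membrane and other matrix proteins, was at 13.8, 12.2 and 17.05 FPKM in KO, against 15.0 and 25.5 FPKM in WT. KO 3 lay above WT 1, so the groups overlapped. The log2 difference was -0.44 (95% interval -0.998 to 0.13, limma unadjusted p = 0.113), and WT 2 carries most of it: it was -0.07 without WT 2 and -0.80 without WT 1. Exons of Mmp19 overlap those of Tmem198b on the opposite strand, a gene at 0.78 to 1.17 FPKM in KO and at 0.93 and 1.08 FPKM in WT.

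Mmp7, matrilysin (chromosome 9, 7692090-7699585 on the plus strand), is a small MMP made mainly by epithelial cells. It was at 2.43, 1.35 and 3.77 FPKM in KO, against 0.43 and 1.44 FPKM in WT. KO 2 lay just below WT 2, so the groups overlapped, and WT 1 stood lowest. The mean was 2.52 ± 1.21 FPKM (SD, n = 3) in KO and 0.935 ± 0.714 FPKM (SD, n = 2) in WT tumours, a ratio of 2.69. The log2 difference of 0.85 (95% interval 0.11 to 1.60, limma unadjusted p = 0.0291, adjusted p = 0.999) was 0.47 without WT 1 and 1.24 without WT 2. The annotated gene AV064505 overlaps Mmp7 on the opposite strand.

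Mmp7 is known from bile duct epithelium, so its values were set beside cholangiocyte markers, of which 0 of 6 tested passed. Krt19, a duct keratin, was at 1.49, 1.81 and 1.05 FPKM in KO, against 0.61 and 1.56 FPKM in WT. Epcam, an epithelial adhesion protein, was at 1.87, 0.93 and 1.69 FPKM in KO, against 0.72 and 1.74 FPKM in WT. WT 1 was the lowest library for all 3 genes. All 6 tested markers had a higher log2 mean in KO (median difference 0.21), and their part in the Mmp7 values was not tested.

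Mmp12, macrophage elastase (chromosome 9, 7344381-7369499 on the plus strand), was the most spread out of the MMPs above the filter within KO. It was at 3.57, 1.57 and 7.55 FPKM in KO, against 3.44 and 5.85 FPKM in WT. KO held both the lowest and the highest library. The log2 difference of -0.25 had a 95% interval from -1.24 to 0.75, and was -0.69 without KO 3 and 0.18 without KO 2. Summed FPKM of 13 macrophage and Kupffer cell markers was 189.5, 94.2 and 207 in KO, against 134 and 168 in WT, with KO 2 lowest and KO 3 highest, as for Mmp12. Single markers differed in order. Cd5l was at 32.8, 14.86 and 51.15 FPKM in KO, against 26.66 and 17.02 FPKM in WT, with KO 2 lowest and KO 3 highest. Lyz2 was at 86.38, 43.97 and 81.33 FPKM in KO, against 64.45 and 93.8 FPKM in WT, with WT 2 highest. Marco was at 3.01, 1.28 and 3.58 FPKM in KO, against 0.96 and 0.57 FPKM in WT (limma unadjusted p = 0.0094). None of the 11 markers tested passed, and 7 had a higher and 4 a lower log2 mean in KO. Their part in the Mmp12 values was not tested. Exons of Mmp12 overlap those of Mmp1b, which was listed at 0 in every library.

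The collagenases and stromelysins were scarce. Mmp13, the main interstitial collagenase of rodents (chromosome 9, 7272514-7283331 on the plus strand), was at 0.24, 0.32 and 0.36 FPKM in KO, against 0.44 and 0.87 FPKM in WT. All KO libraries lay below both WT libraries. With no expression filter its log2 difference was -0.33 (limma unadjusted p = 0.0366, adjusted p = 0.997). The neutrophil collagenase Mmp8 was at 0.29, 0.09 and 0.32 FPKM in KO, against 0.29 and 0.25 FPKM in WT. The stromelysins Mmp3, Mmp10 and Mmp11 stayed under 1 FPKM in every library.

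Neutrophil markers were set beside Mmp8 and Mmp9. The sum of 11 markers was 11.1, 6.23 and 9.92 FPKM in KO, against 8.14 and 7.43 FPKM in WT. Ly6g, which defines the lineage in mice, had a mean of 0.022 FPKM over the 5 libraries. S100a9, a calcium-binding protein abundant in neutrophils, was at 3.83, 2.19 and 3.16 FPKM in KO, against 2.44 and 3.07 FPKM in WT. None of the 3 markers tested passed, and all 3 had a higher log2 mean in KO. Markers under the filter went both ways. Csf3r was at 0.76, 0.50 and 0.65 FPKM in KO, against 0.96 and 1.35 FPKM in WT, and Cxcr2 was likewise lower in KO without overlap. Ltf was at 0.63, 0.73 and 1.11 FPKM in KO, against 0.27 and 0.50 FPKM in WT. Of all genes under the filter with a value, 14.2% had no overlap. The part of neutrophils in the Mmp8 and Mmp9 values was not tested.

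Of the inhibitors, Timp3 (chromosome 10, 86300372-86349506 on the plus strand) was the most abundant. This matrix-bound TIMP also blocks ADAM and ADAMTS proteases. It was at 15.2, 14.4 and 11.0 FPKM in KO, against 11.6 and 16.4 FPKM in WT, with overlapping groups and a log2 difference of -0.04 (95% interval -0.53 to 0.45). Timp2 (chromosome 11, 118301069-118355740 on the minus strand) was at 8.71, 4.97 and 5.63 FPKM in KO, against 5.30 and 6.53 FPKM in WT, again with overlap (log2 difference 0.08, 95% interval -0.47 to 0.63).

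Timp1, the inducible inhibitor whose serum level is used as a fibrosis marker in human liver disease (chromosome X, 20870166-20874735 on the plus strand), was at 1.66, 3.11 and 1.60 FPKM in KO, against 2.75 and 4.21 FPKM in WT. KO 1 and KO 3 lay below both WT libraries and KO 2 between them. The mean was 2.12 ± 0.855 FPKM (SD, n = 3) in KO and 3.48 ± 1.03 FPKM (SD, n = 2) in WT tumours, a ratio of 0.61. The log2 difference was -0.53 (95% interval -1.12 to 0.06, limma unadjusted p = 0.0707, adjusted p = 0.999), and it was -0.30 without WT 2 and -0.77 without WT 1. Timp4 was at or under 0.02 FPKM in every library.

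Ratios within a library do not depend on its scaling, and those given here were chosen after the values were seen and are given without a test. The share of all gene pairs whose ratio separates the groups was not computed. Timp1 over Timp3 was 0.110, 0.217 and 0.146 in KO, against 0.237 and 0.257 in WT, without overlap. Mmp19 over Mmp14 was 0.429, 0.444 and 0.638 in KO, against 0.640 and 1.03 in WT, where KO 3 and WT 1 nearly meet. Mmp14 over Timp2 was 3.69, 5.54 and 4.75 in KO, against 4.42 and 3.80 in WT, with overlap. Summed MMPs over summed TIMPs gave 2.91, 2.79 and 4.27 in KO, against 2.92 and 3.09 in WT, with KO libraries on both sides of the WT values.

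**Figure D2:**
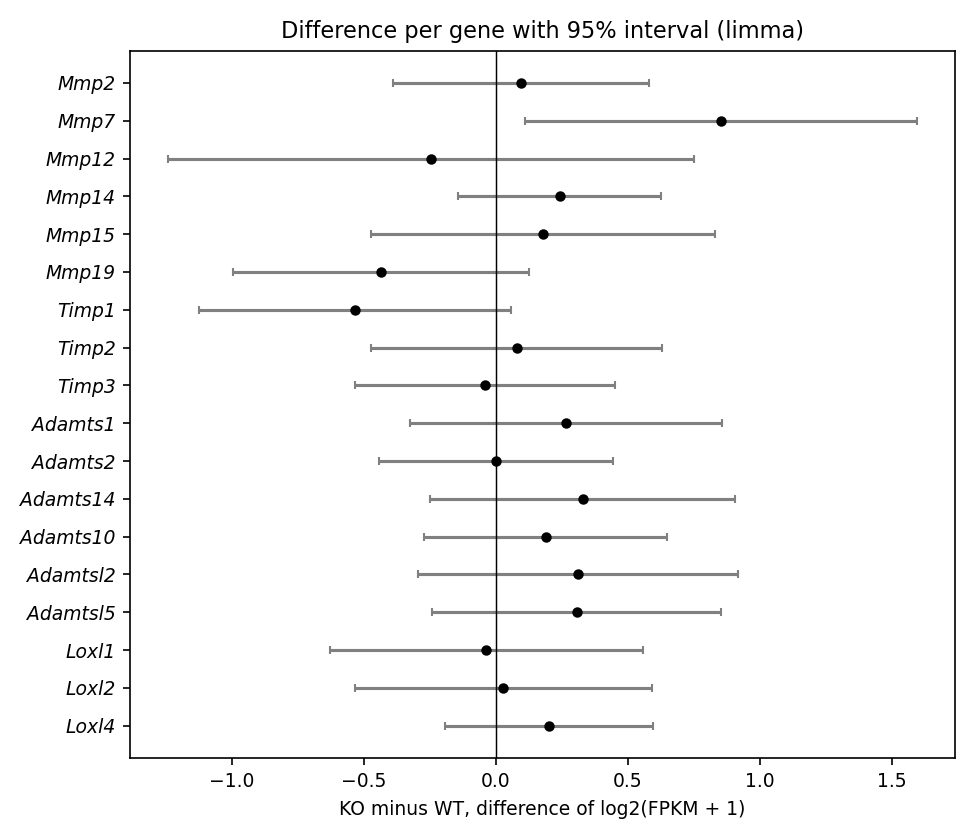
Difference of log2(FPKM + 1), KO minus WT, for the 18 genes tested, with the 95% interval from limma. Intervals of 17 genes include 0; that of Mmp7 runs from 0.11 to 1.60 before adjustment for the genes tested.

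The ADAMTS proteases above the filter were Adamts1, Adamts2, Adamts10 and Adamts14. Adamts1 (chromosome 16, 85793827-85803113 on the minus strand), which cuts versican and aggrecan, was at 2.55, 3.18 and 1.80 FPKM in KO, against 1.28 and 2.64 FPKM in WT. WT 1 was the lowest library and the groups overlapped (log2 difference 0.27, 95% interval -0.33 to 0.86). Versican itself (Vcan) had a mean of 0.12 FPKM, and aggrecan (Acan) was listed at 0 in every library.

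Adamts2 (chromosome 11, 50602084-50807573 on the plus strand), which removes the amino-terminal propeptide of fibrillar procollagens, was at 1.89, 1.39 and 1.32 FPKM in KO, against 1.29 and 1.78 FPKM in WT. Its group means were 1.53 ± 0.311 FPKM (SD, n = 3) in KO and 1.54 ± 0.346 FPKM (SD, n = 2) in WT tumours, and its log2 difference of -0.0011 had a 95% interval from -0.44 to 0.44. Adamts14 (chromosome 10, 61197112-61273438 on the minus strand), a related procollagen protease, was at 1.96, 1.35 and 1.01 FPKM in KO, against 1.42 and 0.52 FPKM in WT. It is 1 of 2 genes tested here, with Loxl4, in which WT 2 was below WT 1. The log2 difference of Adamts14 was 0.33 (95% interval -0.25 to 0.91).

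Adamts10 (chromosome 17, 33524204-33553782 on the plus strand), which acts on fibrillin microfibrils, was at 1.82, 1.19 and 1 FPKM in KO, against 0.95 and 1.11 FPKM in WT (log2 difference 0.19). Below the filter, Adamts7, a protease of cartilage and vessel wall matrix, was at 0.68, 0.50 and 0.39 FPKM in KO, against 0.76 and 0.78 FPKM in WT, without overlap. Its exons overlap those of Tbc1d2b on the opposite strand, at 8.51 to 16.1 FPKM in KO and 8.33 and 12.2 FPKM in WT. Adamts13, which cleaves von Willebrand factor and is known from stellate cells, was at 0.28, 0.17 and 0.26 FPKM in KO, against 0.19 and 0.16 FPKM in WT.

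Of the 5 ADAMTS-like genes, 2 were tested, Adamtsl5 and Adamtsl2, and none passed. Adamtsl5 (chromosome 10, 80339110-80348412 on the minus strand), a microfibril-associated protein, was at 4.95, 2.80 and 3.57 FPKM in KO, against 2.31 and 3.35 FPKM in WT (log2 difference 0.31, 95% interval -0.24 to 0.86). Adamtsl2 (chromosome 2, 27079379-27108981 on the plus strand), linked to TGF-beta control in human geleophysic dysplasia, was at 4.02, 1.74 and 2.08 FPKM in KO, against 1.76 and 1.86 FPKM in WT. KO 1 stood apart, and KO 2 lay below both WT libraries. The log2 difference was 0.31 with all libraries and 0.05 without KO 1.

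Adamtsl4, a fibrillin-binding protein (chromosome 3), was below the filter in mean, at 1.32, 0.83 and 0.95 FPKM in KO, against 0.51 and 0.53 FPKM in WT. No KO library reached down to the WT values. With no expression filter its log2 difference was 0.41 (limma unadjusted p = 0.0236, adjusted p = 0.997), and the authors' deposited table gives it a p of 0.0111 and a false discovery rate of 0.806. Under that setting 2 of 49 members with a value, Adamtsl4 and Mmp13, reached an unadjusted p under 0.05 (4.08%), against 4.15% of all 16286 genes; Mmp7 did not.

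Of the lysyl oxidases, Loxl2 (chromosome 14, 69609068-69695834 on the plus strand), which cross-links type IV and fibrillar collagens, was at 4.76, 3.54 and 2.39 FPKM in KO, against 3.04 and 3.73 FPKM in WT. KO libraries lay above, between and below the WT libraries (log2 difference 0.03, 95% interval -0.53 to 0.59). Loxl1 (chromosome 9, 58287738-58313186 on the minus strand), needed for elastin renewal in mice, was at 2.31, 1.20 and 0.88 FPKM in KO, against 1.18 and 1.76 FPKM in WT, with the same spread on both sides (log2 difference -0.04).

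Loxl4 (chromosome 19, 42593982-42612813 on the minus strand), another collagen cross-linking member, was at 1.39, 1.06 and 1.12 FPKM in KO, against 0.92 and 0.88 FPKM in WT. The groups did not overlap, with means of 1.19 ± 0.176 FPKM (SD, n = 3) in KO and 0.900 ± 0.0283 FPKM (SD, n = 2) in WT tumours (log2 difference 0.20, 95% interval -0.19 to 0.60, limma adjusted p = 0.999). Lox, the founding member, was at 0.83, 0.70 and 0.29 FPKM in KO, against 0.39 and 1.07 FPKM in WT, so WT 2 was the library above 1 FPKM. Loxl3 was at 0.40 to 0.92 FPKM in KO, and at 0.38 and 0.49 FPKM in WT.

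The remaining low genes add little signal. Of 31 genes under the filter with a value, KO and WT did not overlap in 4 (12.9%, against 14.2% of all such genes): Adamtsl4 with KO higher, and Mmp13, Mmp17 and Adamts7 with KO lower. Mmp17, a membrane-anchored protease, was at 0.05, 0.02 and 0.04 FPKM in KO, against 0.09 and 0.06 FPKM in WT. The 25 genes below 1 FPKM in every library with overlapping groups ranged up to 0.98 FPKM (Mmp23, in KO 1), and the KO mean was the higher in 9 and the lower in 15 of them. Mmp1a, Mmp1b, Mmp20, Mmp21, Adamts18, Adamts19 and Adamts20 were listed at 0 in all libraries.

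**Figure D3:**
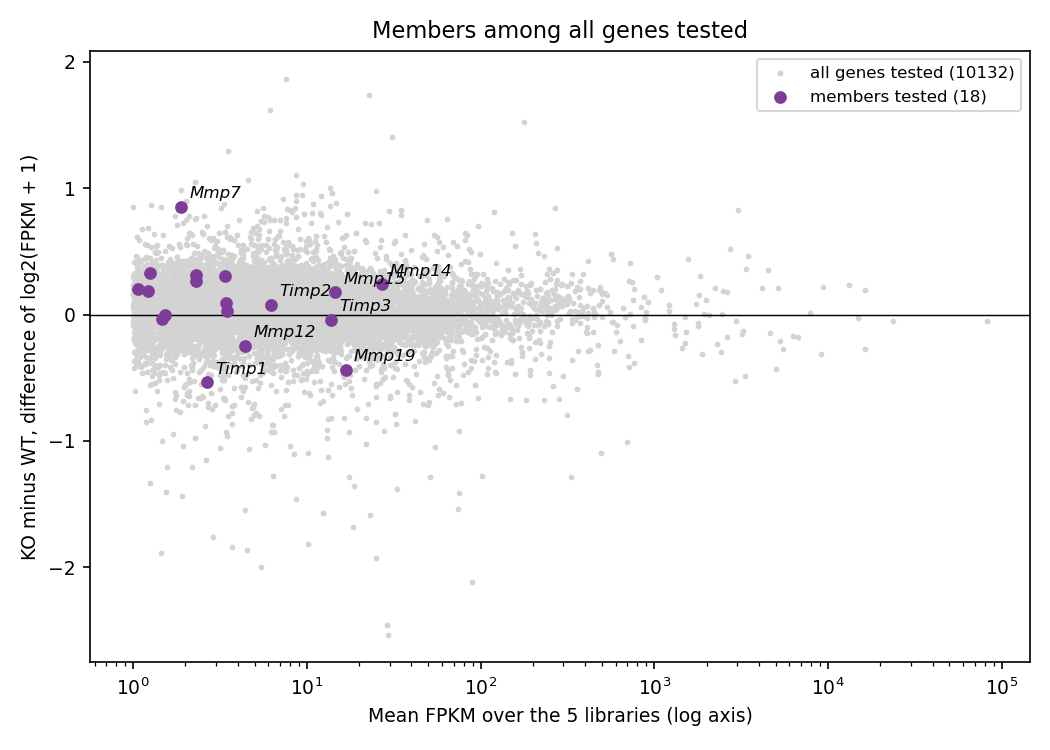
Difference of log2(FPKM + 1), KO minus WT, against mean FPKM over the 5 libraries (log axis) for all 10132 genes tested in grey and the 18 tested members in purple. The members lie between -0.53 (Timp1) and 0.85 (Mmp7), inside the cloud of all genes.

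The log2 mean was higher in KO for 12 of the 18 and lower for 6 (66.7% higher, where all genes tested were 61.4% higher and 38.6% lower). Their median difference was 0.14, beside 0.05 for all genes tested. The count of higher genes depends on single libraries: it was 7 of 18 without WT 1 and 8 of 17 without KO 1, and 15 of 18 without WT 2, KO 2 or KO 3. In 12 of the 18 the gap between the WT libraries was larger than the difference between the genotypes, which held for 74.5% of all genes tested.

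KO 1 was the highest of the 5 libraries in 11 of the 18 (61.1%), where it was the highest in 31.5% of all genes tested. WT 2 was above WT 1 in 16 of the 18 (88.9%), against 72.3% of all genes tested. The 5 lysyl oxidases summed to 10.2, 6.90 and 5.13 FPKM in KO, against 6.02 and 7.82 FPKM in WT. The ADAMTS-like genes summed to 10.6, 5.53 and 6.78 FPKM in KO, against 4.76 and 6.62 FPKM in WT. In both families KO 1 was the highest library.

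Stellate cell and fibroblast markers were also highest in KO 1, with a sum of 14 genes at 217, 149 and 159 FPKM in KO, against 130 and 180 FPKM in WT. Of these 14, all tested, 9 had a higher and 5 a lower log2 mean in KO, and none passed. Lrat, the vitamin A storage enzyme that marks stellate cells, was at 1.71, 1.35 and 1.58 FPKM in KO, against 0.87 and 0.98 FPKM in WT (limma unadjusted p = 0.048). Acta2, the actin of activated myofibroblasts, was at 10.4, 7.80 and 4.56 FPKM in KO, against 9.68 and 11.3 FPKM in WT (limma unadjusted p = 0.136). Endothelial markers summed to 88.3, 58.4 and 68.3 FPKM in KO, against 59.5 and 57.8 FPKM in WT, and 0 of 9 passed. The part of these cells in the members' values was not tested.

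B and plasma cell markers, 5 of 9 tested and none past the test, were lower in every KO library, at a sum of 123, 142 and 47.3 FPKM, against 190 and 507 FPKM in WT. WT 2 was their highest library, as it was for Mmp15, Mmp19, Timp1 and Timp3, 4 of the 18 genes tested (22.2%, against 35% of all genes tested). Their part in the members' values was not tested.

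**Figure D4:**
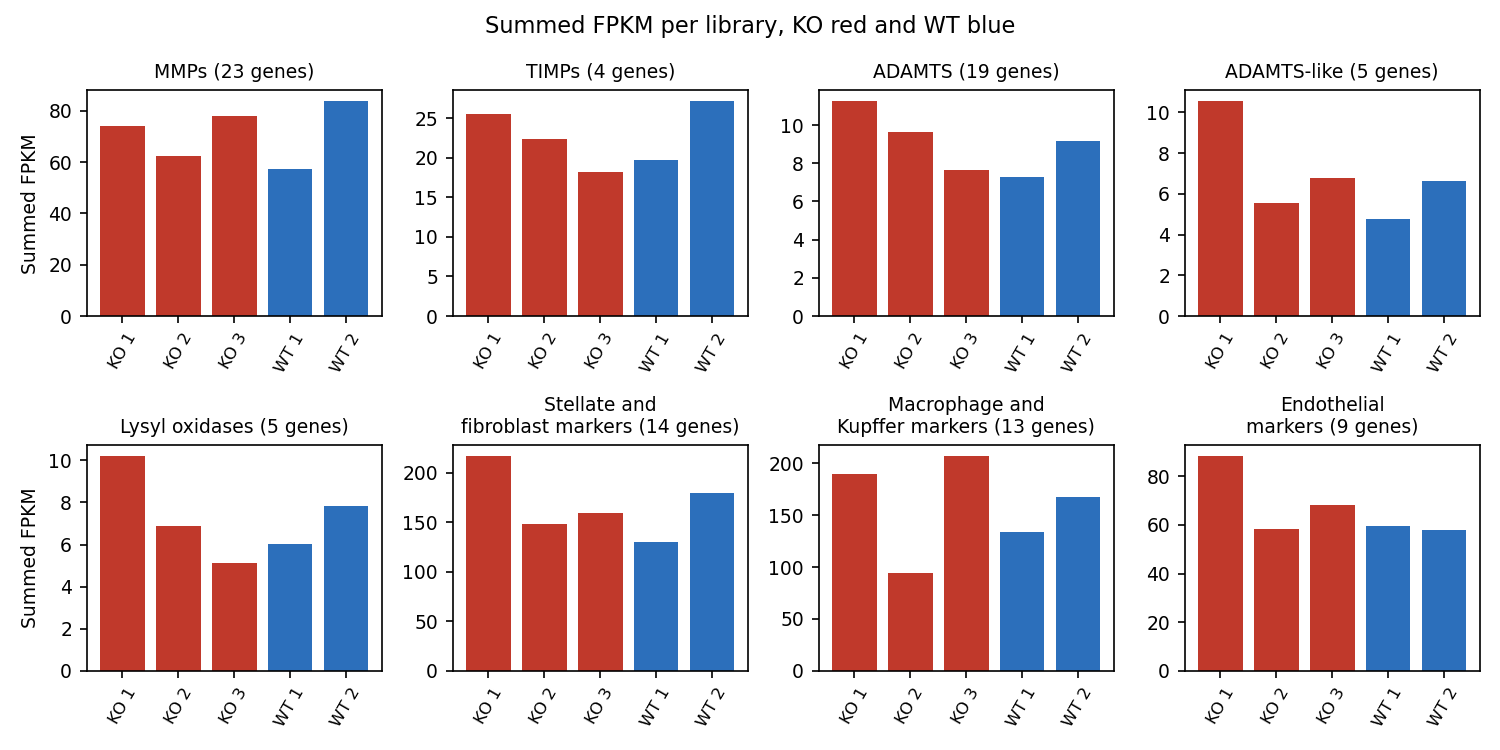
Summed FPKM per library of the 5 gene families and of 3 marker lists, with the KO libraries (red) left of the WT libraries (blue). KO 1 is highest for ADAMTS, ADAMTS-like genes, lysyl oxidases and the stellate and endothelial markers, and WT 2 for MMPs and TIMPs.

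The substrates and partners of these enzymes were compared in 5 lists, and none of their members passed the test. For comparison, 61.4% of all genes tested were higher in KO, their median difference was 0.05, and 15.1% had no overlap. Of 18 matrix substrates tested, 14 had a higher and 4 a lower log2 mean in KO (median 0.10). Fn1, fibronectin, was at 606, 479 and 473 FPKM in KO, against 445 and 440 FPKM in WT, without overlap (log2 difference 0.22, limma unadjusted p = 0.243). Col6a1 and Col14a1, collagen chains of the interstitial matrix, had log2 differences of 0.33 and 0.31.

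In collagen folding and trimming, 12 of 15 tested were higher and 3 lower (median 0.08). Dcn, the collagen-binding proteoglycan decorin, was at 65.7, 40.2 and 57.8 FPKM in KO, against 35.7 and 43.2 FPKM in WT (limma unadjusted p = 0.089). Tgm2, a transglutaminase that cross-links matrix proteins, had a log2 difference of 0.30.

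In the plasminogen system with MMP activators, 8 of 10 tested were higher and 2 lower (median 0.09). Pcsk6, a proprotein convertase related to furin, was at 20.6, 22.6 and 18.0 FPKM in KO, against 15.8 and 18.4 FPKM in WT (log2 difference 0.24, limma unadjusted p = 0.214). Furin, which activates the membrane-bound MMPs, was at 58.9, 70.3 and 55.4 FPKM in KO, against 66.2 and 67.6 FPKM in WT. Among other matrix proteases, 8 of 12 tested were higher and 4 lower (median 0.06). Mep1b, a meprin subunit, was at 1.89, 1.48 and 2.30 FPKM in KO, against 2.84 and 4.93 FPKM in WT, without overlap (log2 difference -0.73, limma unadjusted p = 0.0139). Ctsd, the lysosomal protease cathepsin D, was at 271, 286 and 252 FPKM in KO, against 248 and 199 FPKM in WT.

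In TGF-beta signalling, a pathway that induces several of these genes, 6 of 13 tested were higher and 7 lower (median -0.04). Tgfbr3, the co-receptor betaglycan, was at 3.31, 2.44 and 1.84 FPKM in KO, against 1.24 and 1.34 FPKM in WT (log2 difference 0.60, limma unadjusted p = 0.0219, adjusted p = 0.999). Ccn2, a matricellular protein induced by the pathway, was at 21.3, 12.8 and 12.2 FPKM in KO, against 8.77 and 11.7 FPKM in WT, likewise with KO above WT (log2 difference 0.52, limma unadjusted p = 0.0775). Tgfb1, the ligand, was at 7.24, 6.03 and 5.18 FPKM in KO, against 7.50 and 7.99 FPKM in WT, without overlap in the other direction (log2 difference -0.30, limma unadjusted p = 0.16).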

How the data were processed

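RNA was sequenced from 3 KO and 2 WT tumours. Per the submitters' processing notes, the build was mm10 and the tools were HISAT2, StringTie, limma, DESeq2 and bcl2fastq 2.0, with no role for any. Annotation and strand setting: not given in the sources used here. Per gene and library, the authors deposited FPKM rounded to 2 decimals, their mean FPKM per genotype, a log2 fold change of KO over WT, and a p-value with a false discovery rate. Groups came from sample titles. Values were taken as log2(FPKM + 1), and genes averaging 1 FPKM or more were tested by limma 3.58.1 in R 4.3.3 (two-sided, with a mean-variance trend and 3 residual degrees of freedom, Benjamini-Hochberg over all 10132 genes, threshold 0.05), after a check on simulated data. Fold changes on this scale understate those of low genes. Depth is unknown, so no counting interval is given. With 3 against 2 libraries the smallest exact permutation p is 0.1, so no such test was run.

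The genes and lists were chosen with earlier results of these data known. Genes with a mean of at least 1 FPKM, those at 1 FPKM in any library and those without overlap are named with their values. From the lists of substrates and partners and of stellate cell and macrophage markers, up to 4 genes are named by smallest unadjusted p. Single endothelial, B and plasma cell markers are not named. Krt19, Epcam, Ly6g, S100a9, Vcan, Acan and some genes under the filter were named for their role. Cd5l and Lyz2 were named for their differing order of libraries, and Csf3r, Cxcr2 and Ltf for their lack of overlap. The marker symbol Tf was not matched. Without a known strand setting, reads of the 16 genes whose exons overlap another gene may be shared with it. The 15 alternatives changed the pseudocount, filter, scaling, variance prior or replicate block, or left out 1 library. Figures were drawn with matplotlib 3.10.9.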

Additional observations from a re-analysis of the deposited data

How the results depend on the processing

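None of the members passed limma's test under any of the 15 alternatives (0 in each; smallest adjusted p = 0.284, Mmp19 without WT 1). Of 256 values of the 18 genes under an alternative, 231 kept their direction and 25 did not; 8 genes, among them Mmp7, Mmp14, Mmp19, Timp1 and Loxl4, kept it under every alternative in which they passed the filter (Loxl4 did not pass it without KO 1). Outside the leave-one-out fits the direction turned with rescaling to a common sum for Adamts2 (0.013), and for Loxl2 with median-ratio rescaling (-0.019) and quantile normalization (-0.039). With the replicate block it turned for Timp3 (0.089), Adamts2 (0.059) and Loxl1 (0.14). KO 3 is the only library numbered 3, so the block gave the same differences as leaving out KO 3. Those turns are therefore not separate results, and the 25 count them under both settings. With 1 library left out, the log2 difference ran from -0.072 to 0.60 for Adamts1, -0.0065 to 0.66 for Adamts14, -0.14 to 0.14 for Adamts2, -0.27 to 0.14 for Loxl1, -0.16 to 0.23 for Loxl2, -0.69 to 0.18 for Mmp12, -0.34 to 0.70 for Mmp15, -0.048 to 0.21 for Mmp2, -0.13 to 0.22 for Timp2 and -0.27 to 0.19 for Timp3; without a WT library, the lone one is assumed to vary like the KO libraries. Mmp7 ran from 0.33 (pseudocount 5) to 1.42 (pseudocount 0.1), and was 0.60 with the replicate block.

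Over all genes, 1 was called; 0 were with quantile normalization, with median-ratio rescaling, after rescaling to a common sum, without the expression filter, with the filter raised to 5 FPKM, or with a pseudocount of 5, 3 with robust empirical Bayes and 62 with the replicate block, and 0 to 17 with 1 library left out (17 without WT 1). The cause was not tested. Without WT 1 the median of all genes tested was -0.07 and without WT 2 it was 0.16, against 0.05 with all libraries. Samples share only a number: deviations of KO 1 with WT 1 correlated at r = 0.0884 and of KO 2 with WT 2 at r = -0.241. FPKM without a known depth sets no detection limit for the low genes.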
